A study of Mus musculus with 2 samples.

Results

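Microtubules are polymers of alpha and beta tubulin, and mammals carry several genes, called isotypes, for each of these subunits. The members described here were the mouse genes Tuba1a, Tuba1b, Tuba1c, Tuba4a and Tuba8 of the alpha class and Tubb1, Tubb2a, Tubb4b, Tubb5 and Tubb6 of the beta class. They were found in the gene tables by matching Ensembl identifiers to symbols, and they are 10 of the 16 alpha and beta tubulin genes and of the 43346 Ensembl genes in those tables. Total RNA-seq had been measured in 2 libraries, biological replicates 1 and 2, of primary cells labelled megakaryocyte progenitor (CFU-Meg), the bone marrow cell that gives rise to the platelet-forming megakaryocyte. Both came from male C57BL/6J mice aged 5 to 6 weeks, both started from 1 ng of RNA, and neither carried an allele or an agent according to the labels. Because the labels give them the same donor identifier, differences between the libraries may not reflect differences between animals. There is 1 group and no contrast, and levels are therefore a description with n = 2. Levels are in TPM, a measure of relative transcript abundance that is corrected for transcript length and has the same fixed sum in every library.

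Every beta tubulin pairs with an alpha tubulin before it is added to a microtubule, and isotypes differ most in their acidic ends, the part of the protein that enzymes modify. Dividing cells use widely expressed isotypes for the mitotic spindle. In the megakaryocyte lineage Tubb1 is the characteristic beta isotype, built into the microtubule coil under the platelet membrane, and Tuba4a is an alpha isotype of platelets.

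The libraries held 82746658 and 75652762 expected counts, the authors' estimated reads per gene. The label was checked against marker genes of the lineage. Of 14 megakaryocyte and platelet markers, 3 reached 1 TPM in both libraries, and their summed level was 15.3 and 8.75 TPM in replicates 1 and 2. Itga2b, the integrin that marks the lineage, stood at 2.63 and 2.18 TPM, Pf4 at 0.94 and 0.27 TPM, Gp9 at 1.01 and 0.85 TPM, and Gp6 had no reads. The 10 granulocyte markers all lay above 1 TPM, with a summed level of 16167 and 17073 TPM led by Mpo at 6306 and 5478 TPM. At 1 TPM or more in each library were 9 of 10 erythroid markers (highest Car1, 511.9 and 242.3 TPM), 7 of 8 monocyte and macrophage markers (Ly6c2, 2767 and 3120 TPM), 7 of 7 mast cell and basophil markers (Cpa3, 53.0 and 51.2 TPM), 2 of 8 stroma and endothelium markers (Pecam1, 24.1 and 24.7 TPM), 0 of 8 lymphoid markers (Lck, 1.08 and 0.50 TPM) and 0 of 7 neuronal markers (Mapt, 0.24 and 0.28 TPM). The cells are therefore called the labelled cells below. In bulk RNA, fewer cells of a type and less RNA per cell cannot be told apart.

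The coding ends of the members are shown first, because several results below turn on how alike these genes are. All 5 alpha members began with the codons of the alpha-type start and all 5 beta members with those of the beta-type start, the short stretch that TTC5 recognises on a growing tubulin chain when free tubulin is in excess. The first 30 coding bases of the leading member of each class follow, with the first 4 codons in capitals.
Tuba1b: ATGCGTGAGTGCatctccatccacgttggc
Tubb5: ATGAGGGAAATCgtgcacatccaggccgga

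The last 60 coding bases of 7 members are shown with the last codon before the stop in capitals, since that codon decides whether an alpha tubulin is made with the terminal tyrosine that the detyrosination cycle removes and restores. They were read from GENCODE M21 transcripts on GRCm38, 5′ to 3′ on the strand of the gene.
Tuba1c: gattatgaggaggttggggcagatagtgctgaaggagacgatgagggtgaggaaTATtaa
Tuba4a: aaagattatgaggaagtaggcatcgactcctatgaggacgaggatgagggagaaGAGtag
Tuba8: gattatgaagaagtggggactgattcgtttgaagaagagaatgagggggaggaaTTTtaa
Tubb1: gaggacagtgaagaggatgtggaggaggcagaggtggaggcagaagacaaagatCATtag
Tubb2a: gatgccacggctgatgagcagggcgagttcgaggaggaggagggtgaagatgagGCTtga
Tubb4b: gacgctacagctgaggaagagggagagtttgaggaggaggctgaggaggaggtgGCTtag
Tubb5: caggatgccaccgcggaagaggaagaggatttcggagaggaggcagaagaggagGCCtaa

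Of the alpha members shown, Tuba1c ended on a tyrosine codon, Tuba8 on a phenylalanine codon and Tuba4a on a glutamate codon, so Tuba4a was the one annotated to end in the detyrosinated form. Acidic codons, those of glutamate or aspartate, made up 10 to 12 of the last 19 codons in each of the 7 sequences. The coding sequences held 444 to 451 codons. Between the 10 pairs of alpha members, coding identity ran from 79.2% to 98.3% with a median of 84.9%. Over the last 60 bases its median was 59.7%, with a range from 49.3% to 98.3%. The highest value there was that of Tuba1a and Tuba1b, whose ends thus hardly differed. Between the 10 pairs of beta members, coding identity ran from 73.2% to 84.6% with a median of 80.5%, and 59.2% over the last 60 bases. Between alpha and beta members the median over the last 60 bases was 53.3%. Tubb1 was the outlying beta member, with 73.2% to 76.1% identity to the other 4.

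Alpha tubulin RNA was dominated by Tuba1b, a widely expressed isotype. Tuba1b (ENSMUSG00000023004.8, chromosome 15, 98931425 to 98934565, minus strand) stood at 1218 TPM in replicate 1 and 1158 TPM in replicate 2, a mean of 1188 ± 42.6 TPM (SD, n = 2), from 121328 and 107248 expected counts. It ranked 54 among 21461 nuclear protein-coding genes. The next alpha member was Tuba4a (ENSMUSG00000026202.9, chromosome 1, 75214228 to 75219865, minus strand), with 316.3 and 348.7 TPM, a mean of 332.5 ± 22.9 TPM. The lowest Tuba1b value was thus well above the highest Tuba4a value, and the mean ratio of Tuba1b to Tuba4a was 3.58 ± 0.38.

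Of the remaining alpha members, Tuba1c was the highest. Tuba1c (ENSMUSG00000043091.8, chromosome 15, 99029891 to 99038110, plus strand), an isotype of dividing cells, stood at 76.8 and 75.9 TPM. Tuba1a (ENSMUSG00000072235.5, chromosome 15, 98949837 to 98953703, minus strand), the main alpha isotype of developing neurons, stood at 16.7 and 15.6 TPM. Tuba8 (ENSMUSG00000030137.7, chromosome 6, 121210696 to 121226854, plus strand), the most divergent of the alpha members in coding sequence, stood at 12.7 and 11.4 TPM. The libraries of Tuba1a and Tuba8 did not overlap, but their mean ratio was 1.34 ± 0.03, the smallest step in the order of the alpha members. Tuba1a and Tuba1b, whose coding sequences were 98.3% identical, differed in level by 73.6 ± 1.2 times.

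Beta tubulin RNA was carried by Tubb5 and Tubb4b. Tubb5 (ENSMUSG00000001525.10, chromosome 17, 35833921 to 35838306, minus strand), the beta isotype of proliferating cells, stood at 385.9 and 361.9 TPM, a mean of 373.9 ± 17.0 TPM. Tubb4b (ENSMUSG00000036752.4, chromosome 2, 25222160 to 25224702, minus strand), a widely expressed isotype that also builds cilia, stood at 181.0 and 180.3 TPM, a mean of 180.7 ± 0.5 TPM. Tubb5 exceeded Tubb4b 2.07 ± 0.09 times, and both libraries of Tubb5 lay above both of Tubb4b.

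The other beta members were far lower. Tubb6 (ENSMUSG00000001473.6, chromosome 18, 67390717 to 67402749, plus strand) stood at 3.60 and 3.96 TPM from 362 and 370 counts. Tubb2a (ENSMUSG00000058672.6, chromosome 13, 34074274 to 34078007, minus strand), a beta isotype abundant in neurons, stood at 1.08 and 0.96 TPM from 97 and 80 counts, and its deposited credibility bounds were 0.86 to 1.28 TPM and 0.75 to 1.17 TPM. Tubb2a therefore straddled 1 TPM, and its bounds reached across that level in both libraries.

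Tubb1 had no reads in either library. Tubb1 (ENSMUSG00000016255.5, chromosome 2, 174450695 to 174457882, plus strand) has an annotated transcript of 1406 bases, of which 1356 are coding. A count of 0 allows a level of up to 3 counts per library, which for this transcript is 0.038 TPM in replicate 1 against 0.041 TPM in replicate 2. Measured against that limit in each library, Tubb5 was at least 8833-fold higher than Tubb1, Tubb4b at least 4402-fold, Tubb6 at least 94.5-fold and Tubb2a at least 23.4-fold. None of the 1357 stretches of 50 bases in the Tubb1 transcript occurred in a transcript of another gene on either strand, so no annotated gene competes with Tubb1 for stretches of that length.

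The order of all members by mean TPM was Tuba1b, Tubb5, Tuba4a, Tubb4b, Tuba1c, Tuba1a, Tuba8, Tubb6, Tubb2a and Tubb1. For no neighbours in this order did the ranges of the libraries overlap. The closest neighbours were Tubb5 and Tuba4a, whose mean levels differed 1.12 times: the lowest Tubb5 value was 361.9 TPM and the highest Tuba4a value 348.7 TPM. With n = 2, this separation is a description of these libraries. A level of 1 TPM in both libraries was reached by 8 of the 10 members, beside 46.2% of nuclear protein-coding genes, with Tubb2a and Tubb1 as the exceptions.

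**Figure D1:**
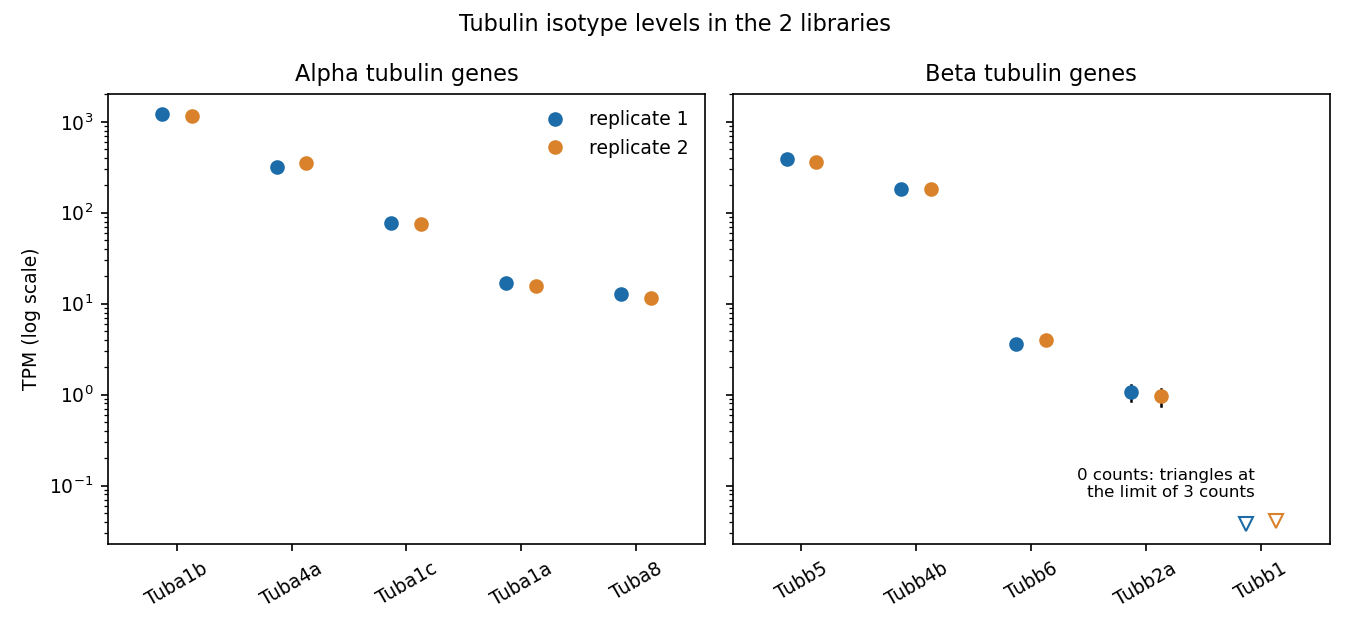
Level of each member in TPM on a log axis, with 1 point for each library (blue, replicate 1; orange, replicate 2); black bars are the deposited credibility bounds, which for most members are narrower than the points. Tuba1b lies near 1188 TPM, the points of each gene lie close together, and the open triangles for Tubb1 mark the level that 3 counts would give, since it had no reads.

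The members cover a wide range within each class, so the makeup of each class was computed as the share of summed TPM, which does not depend on how the libraries are scaled. Tuba1b supplied 74.2% of alpha tubulin TPM in replicate 1 and 71.9% in replicate 2, a mean of 73.1% ± 1.6 (SD, n = 2). Tuba4a supplied 19.3% and 21.7%, with the higher share in the library where Tuba1b had the lower. Shares within a class have a fixed sum, so the shares of its main genes do not move independently. Tuba1c supplied 4.70% ± 0.02, Tuba1a 0.99% ± 0.04 and Tuba8 0.74% ± 0.04.

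In the beta class, Tubb5 supplied 67.5% and 66.1%, a mean of 66.8% ± 1.0, and Tubb4b 31.7% and 33.0%, a mean of 32.3% ± 0.9. Tubb6 supplied 0.68% ± 0.07 and Tubb2a 0.18% ± 0.01. In both classes a single gene thus held most of the RNA and a second gene most of the rest. Tuba1b and Tubb5 together made up 71.5% ± 1.4 of all alpha and beta tubulin TPM.

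**Figure D2:**
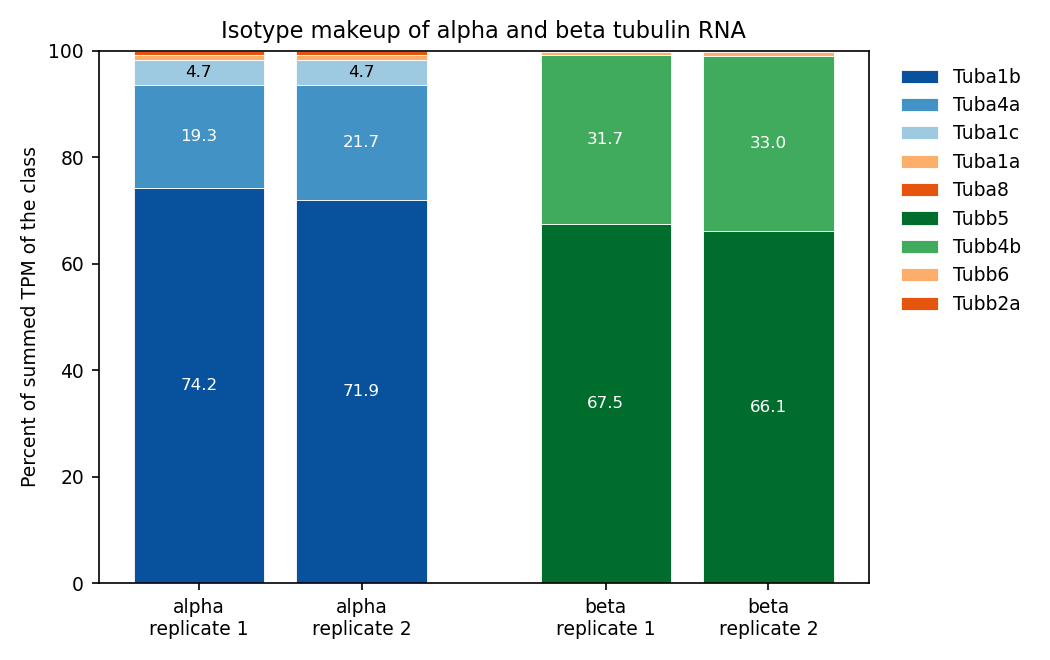
Percent of the summed TPM of the alpha class (left pair of bars) and of the beta class (right pair) held by each isotype, with 1 bar for each library. Tuba1b fills 74.2% and 71.9% of the alpha bars and Tubb5 67.5% and 66.1% of the beta bars. Tubb1 and the tubulin genes that are not members, all at or near 0, are not drawn.

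Summed over each class, alpha tubulin RNA exceeded beta tubulin RNA. The alpha genes summed to 1640 and 1609 TPM and the beta genes to 571.6 and 547.1 TPM. The ratio of alpha to beta was 2.87 in replicate 1 and 2.94 in replicate 2, a mean of 2.91 ± 0.05. Tuba1b alone exceeded Tubb5 3.18 ± 0.03 times. The classes together held 0.54% ± 0.01 of the TPM of nuclear protein-coding genes. These are levels of RNA, and protein was not measured.

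The alpha and beta tubulin genes that are not members added almost nothing. Tuba3a, Tuba3b and Tubal3 of the alpha class and Tubb2b of the beta class had no reads in either library, which allows each at most 0.038 TPM. Tubb3, the neuronal beta isotype, had 6 counts (0.06 TPM) in replicate 1 and none in replicate 2. Tubb4a, a beta isotype of brain, had none in replicate 1 and 1 count in replicate 2. The 7 neuronal markers lay under 1 TPM in both libraries, with a summed level of 0.24 and 0.34 TPM.

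Tuba4a was the member with reads whose TPM was spread over several transcripts. The number of transcripts that could be told apart differed between members. Tuba1c, Tuba8, Tubb2a and Tubb6 had 1 transcript each in the authors' quantification, so their share was fixed at 100%. Tuba1b and Tubb4b had 2, Tuba1a 3, Tubb5 4 and Tuba4a 8. In Tuba1a, Tuba1b, Tuba1c, Tuba8, Tubb2a, Tubb4b, Tubb5 and Tubb6, the leading protein-coding transcript took 98.18% or more of the gene's TPM in each library, as the authors divided it. In Tuba4a the transcript Tuba4a-201 (ENSMUST00000079464.8) took 66.05% and 66.13%, or 208.9 and 230.6 TPM. A retained-intron transcript of 815 bases (ENSMUST00000187103.1) took 12.9% and 14.4%, or 40.7 and 50.1 TPM. Together the transcripts annotated as protein-coding held 86.4% ± 1.1 of Tuba4a TPM.

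The Tuba4a transcript with a complete annotated coding sequence was hardly used. Tuba4a-202 (ENSMUST00000186213), from which the sequence above was read, took 0.05% and 0.06% of the gene's TPM, from 25.1 and 34.2 counts. It differs from Tuba4a-201 in its first exon, which lies at 75219193 to 75219294 on chromosome 1 against 75218536 to 75218624 for Tuba4a-201, and its 3′ end runs 744 bases further. GENCODE M21 marks the coding start of Tuba4a-201 as not found, so that its start cannot be read from the annotation.

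Part of the Tuba4a signal lies where another gene runs on the opposite strand. Stk16, a protein kinase gene (chromosome 1, 75210838 to 75215606, plus strand), overlaps Tuba4a by 1379 bases and stood at 87.3 and 89.0 TPM. Of the 50-base stretches of Tuba4a-201, 28.8% also occur in Stk16 transcripts on the other strand. The sources used here do not state whether the counting used strand, and without strand these reads cannot be told apart. The Stk16 transcript that overlaps Tuba4a held 2391 and 2418 counts, equal to 8.0% and 7.86% of the Tuba4a counts. Counting all of them as Tuba4a left the Tuba1b share at 71.9%. The reverse case, Stk16 reads already counted as Tuba4a, was not tested. Fam166a overlaps Tubb4b in the same way by 121 bases, at 0.74 and 3.28 TPM, and the antisense gene Gm15856 overlaps Tuba8 by 2462 bases, at 0.63 and 0.80 TPM.

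Tuba1a, Tuba1b and Tuba1c share long stretches with each other and with processed pseudogenes, DNA copies of their RNA elsewhere in the genome. Of the 50-base stretches of the Tuba1b transcript, 83.1% occurred in a transcript of another gene, as did 75.5% for Tuba1a, 61.0% for Tuba1c and 14.7% for Tuba8. In Tuba8 nearly all of these lay in the antisense gene Gm15856, with 14.5%. Besides Stk16, Tuba4a-201 shared stretches only with the pseudogene Gm12201, with 1.5%. Tuba1b shared 59.3% with Tuba1c and 44.9% with Tuba1a. In the beta class the values were 55.5% for Tubb4b, 49.6% for Tubb2a and 0.12% for Tubb5, and no stretch of Tubb1 or Tubb6 was shared. Of Tubb2a, 45.6% occurred in Tubb2b, which had no reads.

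The reads that the authors assigned to these copies were few. The 7 pseudogenes that share such a stretch with an alpha member and have a value summed to 16.5 and 17.9 TPM, against 1640 and 1609 TPM for the alpha genes. The highest were Gm14150 at 5.85 and 7.27 TPM, Gm17383 at 6.15 and 5.81 TPM and Gm6682 at 4.13 and 4.22 TPM, all found by a sequence search added after the values were seen. The named beta pseudogenes Tubb4b-ps1 and Tubb4b-ps2 stood at 0.42 and 0.21 TPM and at 0.01 and 0.04 TPM. Levels of Tuba1a, Tuba1b and Tuba1c relative to each other rest on how the authors divided shared reads. The deposited bounds, which cover that division under the authors' model, were 15.5 to 17.8 TPM for Tuba1a and 1191 to 1205 TPM for Tuba1b in replicate 1. They belong to the posterior mean, and the level of 1218 TPM for Tuba1b lies above them. In later annotation, Gm49450 also overlaps Tuba1a and Tuba1b on their strand, and it has no value in these data. The shared percentages above include it, with 38.4% of the Tuba1a stretches and 37.2% of the Tuba1b stretches. They also include other genes without a value, such as AC157548.1 with 57.0% of the Tuba1b stretches. The authors' division of reads did not involve genes without a value.

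**Figure D3:**
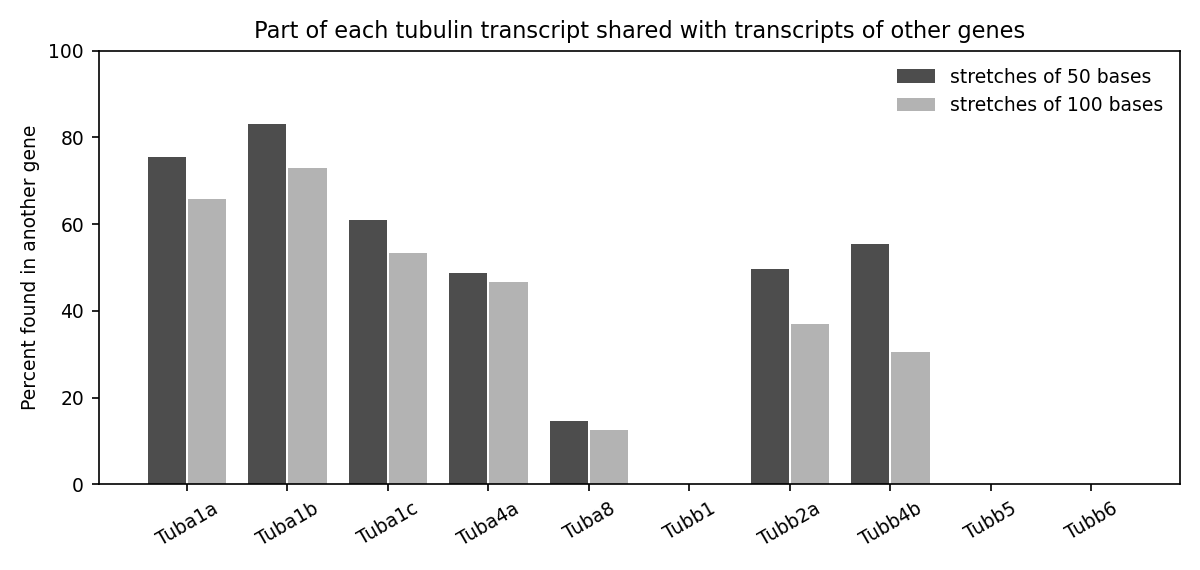
Percent of the stretches of 50 bases (dark bars) and of 100 bases (light bars) in the transcript of each member that also occur, on either strand, in a transcript of another gene. Tuba1b (83.1% at 50 bases), Tuba1a and Tuba1c share the most, and Tubb1, Tubb5 and Tubb6 share almost none. For Tuba4a the bars are those of Tuba4a-202 (48.8% at 50 bases), against 30.3% for Tuba4a-201, which is not drawn.

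Upstream sequence differed between members as well. RefSeq start-site windows on GRCm38.p6, from 250 bases before to 50 bases after the start, were matched for 9 of the 10 members. The window of Tuba1b held 39 CpG dinucleotides, more than 95.6% of 32851 windows, that of Tubb5 held 20 and that of Tubb1 held 3, more than 23.3% of them. The motif GGGCGG, searched on both strands, occurred in 6 of the 9 windows and in 35.7% of all windows, CCAAT in 5 of 9 and 37.4%, TATAAA in 2 of 9 and 13.6%, and AGATAA in 1 of 9 and 11.2%. The Tuba4a window, with 2 GGGCGG matches, lies at the start of Tuba4a-202, the transcript hardly used in these libraries. Tubb4b held 5 CCAAT matches. These are matches of letters only.

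Between the libraries the members differed little. For each gene, an exact binomial test, two-sided, set its counts against the ratio of library sizes given by TMM scaling, with p-values adjusted by the Benjamini-Hochberg method over 14304 genes, and a gene was called at an adjusted p under 0.05 with a difference of at least 2-fold. This test compares the reads of 2 libraries, not conditions, and the spread it sees may be technical. Of the 9 members that passed the filter on low counts, 0 were called, beside 7.63% of all genes tested, and among genes of 10 TPM or more the background was 0.59%. Tubb1, without reads, did not pass the filter. At any fold, 4 of the 9 had an adjusted p under 0.05, beside 58.6% of all genes and 65.6% of those of 10 TPM or more.

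Tuba4a was the member that differed most. Its log2 ratio of replicate 2 to replicate 1 was 0.19 (95% interval 0.17 to 0.21, counting error only; adjusted p = 2.8e-58, exact binomial test). Among 275 genes within 2-fold of its level, 72.0% had a smaller difference between the libraries. Tubb6 had nearly the same log2 ratio, 0.18, from far fewer counts, with an interval from -0.03 to 0.39 and an adjusted p of 0.14 by the exact test.

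The other abundant isotypes differed by 0.05 or less on this scale. The log2 ratio of Tuba1b was -0.03 (interval -0.04 to -0.02, adjusted p = 8e-06, exact binomial test) and that of Tubb5 was -0.05 (-0.07 to -0.03, adjusted p = 1.3e-08, exact binomial test). Tubb4b had 0.04 (0.01 to 0.07, adjusted p = 0.023, exact binomial test), and Tuba1c had 0.03 with an interval that spans 0. Over all 9 the log2 ratios ran from -0.13 for Tubb2a to 0.19, with a median of -0.03, beside a median of 0.00 over all genes tested. For comparison, genes of 100 TPM or more had a median absolute log2 ratio of 0.112, against 0.125 from 10 to 100 TPM and 0.254 from 1 to 10 TPM.

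Marker lists of other cell types differed between these libraries to unlike extents. Granulocyte markers had a median log2 ratio of 0.48, with 8 of 10 higher in replicate 2, and monocyte and macrophage markers 0.45, with 7 of 7 tested higher. The medians were near 0 for erythroid markers (-0.01), mast cell and basophil markers (0.00) and the 3 stroma and endothelium markers tested (0.05), and -0.48 for the 4 lymphoid markers tested. A median near 0 did not mean that the genes of a list were alike between the libraries. Of the mast cell and basophil markers 3 were higher and 3 lower in replicate 2, from -0.64 for Gata2 to 0.80 for Prss34. The stroma and endothelium markers ran from -0.59 for Pdgfrb to 1.27 for Cxcl12. Within the erythroid list, Car1, with a log2 ratio of -1.03, was called lower in replicate 2, and Hbb-bs, Hbb-bt, Hba-a1 and Hba-a2, with 1.11 to 1.62, were called higher. Il7r of the lymphoid list was called lower and Cxcl12 of the stroma list higher. Megakaryocyte and platelet markers had a median of -0.19, and Gp1ba was called lower in replicate 2. Gp6 was at 0 in both libraries, and Gp1bb and Ppbp at 0 in replicate 1. The part of these markers in the Tuba4a difference was not tested.

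**Figure D4:**
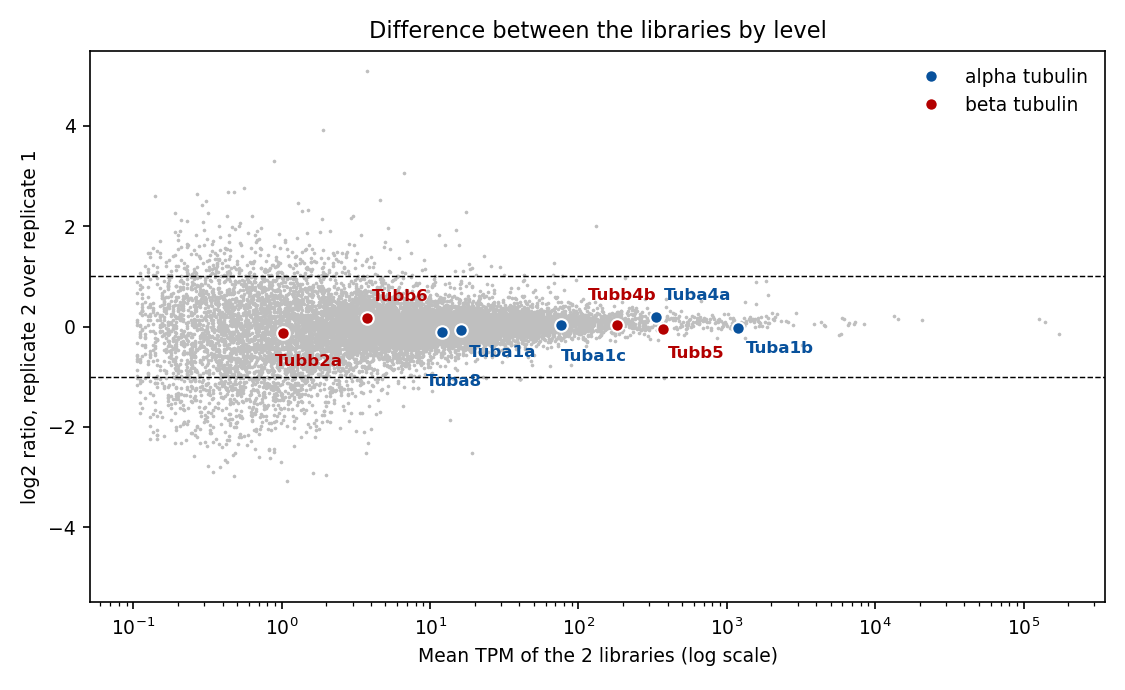
Log2 ratio of replicate 2 to replicate 1 against mean TPM (log axis) for the genes tested with a mean above 0.1 TPM (grey), with alpha members in blue and beta members in red; dashed lines mark a difference of 2-fold. The 9 members lie between -0.13 and 0.19, inside the lines, with Tuba4a and Tubb6 highest and Tubb2a lowest.

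The other tubulins are not built into the wall of the microtubule, but gamma tubulin starts its growth. Tubg1, the gamma tubulin gene of most cells, stood at 8.72 and 8.58 TPM, and Tubg2 had no reads. Tubd1 and Tube1, the delta and epsilon tubulins of centrioles, stood at 6.14 and 2.90 TPM and at 4.18 and 3.54 TPM. Counts of Tubd1 differed less than its TPM, with a log2 ratio of -0.43, and it was not called. The 8 genes of the gamma tubulin complex, which anchors growing microtubules, were all at 1 TPM or more in each library. Their median was 11.2 TPM, beside 0.585 TPM over nuclear protein-coding genes. Mzt1 was highest at 34.6 and 32.1 TPM, followed by Tubgcp3 at 23.3 and 19.5 TPM and Tubgcp4 at 14.1 and 15.0 TPM, and Tubgcp5 was lowest at 5.51 and 5.01 TPM.

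The chaperones that fold new tubulin were the highest of the pathway lists. New tubulin chains are handed by prefoldin to the CCT chaperonin and then to a series of cofactors that join alpha to beta. At least 1 TPM in each library was found for 8 of 9 CCT genes, whose median was 147.8 TPM. Cct3 was highest at 295.2 and 257.2 TPM, then Tcp1 at 232.8 and 236.8 TPM and Cct5 at 235.5 and 221.2 TPM, while Cct6b, a subunit of testis, stood at 0.12 and 0.14 TPM. The median CCT gene thus lay between Tubb4b and Tuba1c in level.

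All 6 prefoldin genes passed 1 TPM in each library; their median was 38.2 TPM, and they ranged from Pfdn5 at 141.7 and 143.5 TPM to Pfdn1 at 17.7 and 22.3 TPM. Next to Pfdn5 stood Vbp1 at 49.7 and 54.3 TPM and Pfdn6 at 53.7 and 49.2 TPM. The 7 folding cofactor genes, which passed it as well, had a median of 14.0 TPM. Tbca, which takes up newly folded beta tubulin, was highest at 72.1 and 98.2 TPM, Tbcb, which binds alpha tubulin, followed at 39.6 and 46.7 TPM, then Tbce, another cofactor that binds alpha tubulin, at 28.9 and 21.6 TPM, and Tbcc was lowest at 3.57 and 3.45 TPM. Ttc5, which reads the start of tubulin chains and sets off decay of their RNA, stood at 8.09 and 7.05 TPM.

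Enzymes that modify tubulin ends were lower. In the tyrosination cycle, Ttl, which adds the terminal tyrosine, stood at 1.15 and 1.29 TPM, and the peptidase genes that remove it, Vash1 and Vash2, at 0.03 and 0.04 TPM and at 0.10 and 0.04 TPM. Svbp, the binding partner of the Vash enzymes, was higher, at 18.4 and 15.5 TPM. The Tuba1c end shown above carries the tyrosine codon on which this cycle acts, and the Tuba4a end lacks it.

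Of 17 genes of the families that add or remove glutamate and glycine side chains, 8 reached 1 TPM in both libraries and 5 were at 0 in both. Agtpbp1, a deglutamylase, was highest at 18.5 and 21.8 TPM. It was followed by the ligase gene Ttll4 at 11.2 and 6.89 TPM and by Ttll12, of the same family, at 9.15 and 7.45 TPM. Agbl4 had no reads. Counts of Ttll4 differed less than its TPM, with a log2 ratio of -0.22. In this list 9 genes passed the filter and 1 was called between the libraries, beside 7.63% of all genes tested. No gene of the other pathway lists was called. The called gene was Ttll3, a glycine ligase, at 1.05 and 1.83 TPM from 81 and 149 counts. Ttll3 had a log2 ratio of 1.01 and an adjusted p of 7.3e-07 by the exact test. It was not called when the libraries were scaled by total counts, where its log2 ratio was 0.99, or when counts were divided by 4, where it was 0.965. Of the acetylation genes, the deacetylase gene Sirt2 stood at 18.9 and 16.5 TPM, the deacetylase gene Hdac6 at 4.27 and 3.83 TPM and the acetyltransferase gene Atat1 at 2.66 and 3.74 TPM.

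Among proteins that lengthen or steady microtubules, 10 of 15 genes reached 1 TPM in each library, and the list median was 5.70 TPM. The plus-end binding genes Mapre1 and Mapre2 were highest at 49.6 and 54.5 TPM and at 44.3 and 51.7 TPM, followed by the spindle assembly gene Tpx2 at 42.6 and 45.6 TPM. Map1a, a microtubule protein of neurons, was lowest at 0.04 TPM in replicate 1 and 0 in replicate 2. Among proteins that shorten or cut microtubules, 8 of 12 reached it, and the list median was 8.55 TPM. Stmn1, which binds free tubulin dimers, stood at 356.8 and 329.7 TPM, in the range of Tuba4a, followed by the severing genes Katna1 at 32.7 and 24.4 TPM and Fignl1 at 31.3 and 25.2 TPM, and Fign had no reads.

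**Figure D5:**
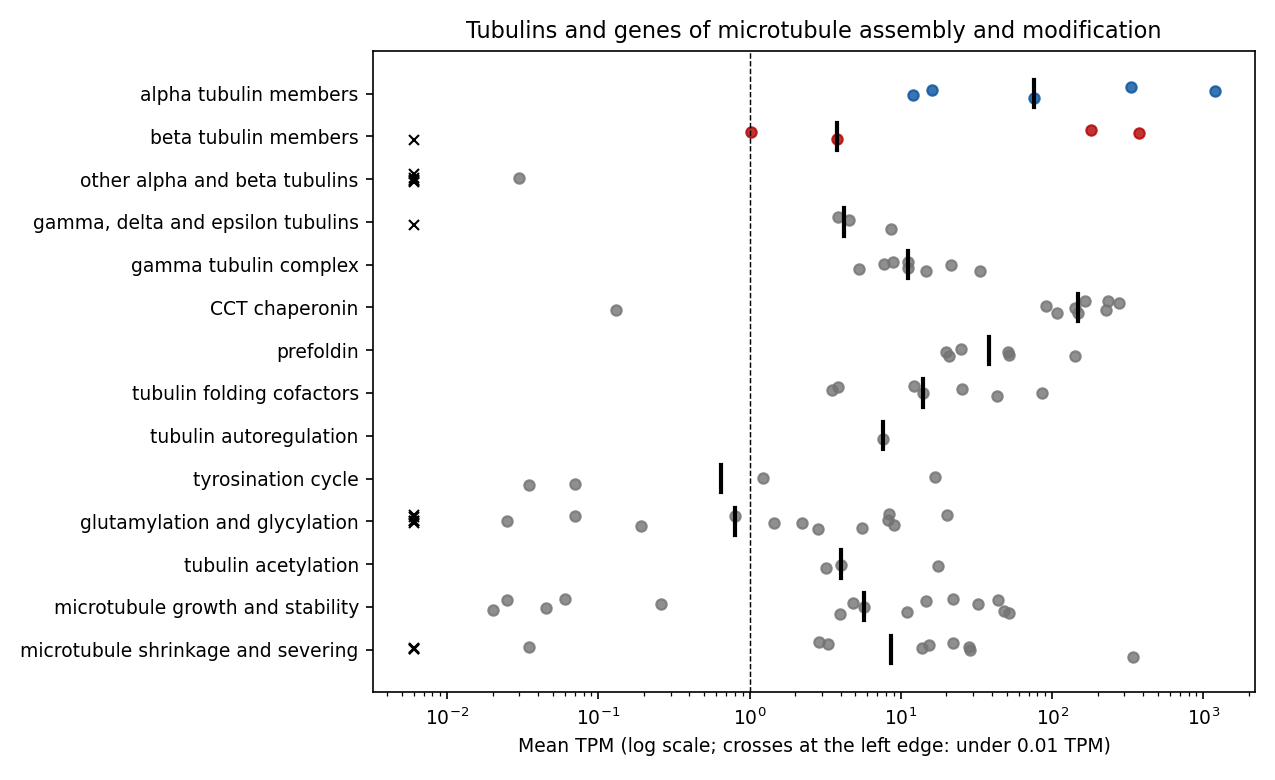
Mean TPM (log axis) of each gene in the tubulin and pathway lists, with alpha members in blue, beta members in red, other genes in grey and black bars at list medians of 0.01 TPM or more; crosses at the left edge are genes under 0.01 TPM and the dashed line marks 1 TPM. The CCT genes cluster around their median of 147.8 TPM with Cct6b apart, and Stmn1 lies far to the right of the other genes that shorten or cut microtubules.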

How the data were processed

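Total RNA-seq reads were quantified on mm10 with GENCODE M4, per the labels and the deposited file lists. Not given in the sources used here are the aligner, the quantifier's version, the read length and layout and the use of strand. Expected counts, per the file headers, are unnormalized estimates in which reads shared by features are divided among them. The authors' TPM values have a fixed sum over every row of a library. The deposited FPKM values were not used for results. The deposited score columns hold credibility bounds of unstated level. The deposited percent values give each transcript's part of its gene's TPM.

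Symbols, positions and coding sequences came from GENCODE M21 (GRCm38); 42462 of 43346 Ensembl rows matched. The members and gene lists were chosen with earlier results of these data known. Named genes were all tubulins and, in each other list, the 3 highest, the lowest and any called gene; of the marker lists, the highest gene, Itga2b, Pf4 and Gp9; further markers were named after their values were seen.

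Counts were rounded, filtered with filterByExpr and scaled by TMM (edgeR 4.0.16, R 4.3.3), with DESeq2 1.42.0 size factors as an alternative; log2 ratios used a prior count of 2. A quasi-likelihood fit needs more than 1 library a group and was not made. Counts of the libraries differed beyond sampling noise (chi-square of 41.9 per gene), so they were kept as 2 samples. Limits from 3 counts and intervals cover counting error only, since PCR copies are not independent. Identity came from global alignment (Biopython 1.88). Coding sequence on chromosome 18, some coding ends and proteins are not reported here. The binomial test was tested on simulated data that held counting error only. That simulation does not show how the test behaves under the wider spread of these libraries.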

Additional observations from a re-analysis of the deposited data

How the results depend on the processing

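No paired analysis was possible because there is 1 group of 2 libraries. With protein-coding transcripts only, the Tuba1b share was 75.2% and the ratio of alpha to beta tubulin 2.85. Leaving out each replicate gave a Tuba1b share of 71.9% to 74.2%, a Tubb5 share of 66.1% to 67.5%, a ratio of 2.87 to 2.94 and 8 to 9 members at 1 TPM. Without a filter on low counts, 3250 genes were called between the libraries (1282 higher and 1968 lower in replicate 2) against 1091 (373 and 718); with counts divided by 4, 491 were called (136 and 355). No tested member was called under any of these scalings, filters or counts, by edgeR's TMM or DESeq2's size factors. Scaling to nuclear protein-coding genes multiplied TPM by 2.49 and 2.46. The difference between the libraries needs both, so it could not be refitted without either. Adding the pseudogenes found by shared stretches, or the Stk16 reads, both chosen after seeing the data, kept the Tuba1b share between 71.9% and 72.3%. All 10 members kept their rank with posterior mean TPM and with protein-coding transcripts only.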
